A study of Homo sapiens with 2 samples.

Results

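Olfactory receptor genes of chromosome 11 were examined in DNA methylomes of 2 acute myeloid leukemia (AML) cell lines. A gene was a member if the GENCODE annotation of GRCh37 called it protein-coding, placed it on chromosome 11 and gave it a symbol made of OR, a family number, 1 or more letters and a member number. All 171 genes with such a symbol had at least 3 CpG dinucleotides that were read more than 5 times in each line, and they are set beside the 19999 protein-coding genes of the genome that met the same minimum. The study sequenced bisulfite-converted DNA of OCI-AML3, labelled DNMT3A mutant (heterozygous R882C according to the study), and of AML5, called OCI-AML5 in the sample record and labelled DNMT3A wild type. Both are established human AML lines grown without treatment, and each is represented by 1 library, so the lines differ in their whole genetic background as well as in DNMT3A and no replicate of either line was available. DNMT3A is one of the enzymes that add methyl groups to unmethylated CpG dinucleotides, and the comparison asks how far the DNA of the mutant line is hypomethylated at these genes.

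Olfactory receptors are G protein-coupled receptors of the cilia of olfactory sensory neurons, where each neuron is known to use a single receptor gene. The genes have a coding sequence without introns, lie in clusters that arose by duplication, and are kept silent in most other tissues. Class I receptors (families OR51, OR52 and OR56) are related to the receptors of fish, whereas class II receptors are the larger group of land vertebrates.

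The methylation level of a CpG dinucleotide is the share of its reads that kept a cytosine after bisulfite treatment. For each gene the level was averaged over the CpG dinucleotides up to 2000 bp from the transcription start site (TSS) in both directions, and in the gene body. The tables hold no RNA measurement, so whether any receptor was transcribed was not measured. Whole-genome totals were 902802339 calls in OCI-AML3 and 894828667 in AML5. The member regions were read less deeply, with a mean per CpG of 27.1 reads in OCI-AML3 vs 32.1 in AML5, against 36.2 vs 35.3 over all nuclear CpG dinucleotides that passed the same minimum. Of the 9044 CpG dinucleotides listed in member regions, 7224 (79.9%) passed the read minimum in both lines, against 86.7% genome-wide. In every cluster of members the mean depth was lower in OCI-AML3, at 0.71 to 0.95 times that in AML5; the part of depth in the differences was not tested.

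Methylation of the chromosome 11 receptors was lower in the DNMT3A mutant line. The median level over the 171 members was 39.6% in OCI-AML3, with members between 1.63% and 93.7%, and 65.9% in AML5, with members between 14.0% and 95.4%. The median difference was -21.8 percentage points, and the middle 50% of the members lay between -30.4 and -15.4. A lower mean level was found in 166 members, as in 92.8% of all protein-coding genes. A decrease of at least 20 percentage points was found in 102 members (59.6%), against 6.38% of all protein-coding genes, whose median difference was -5.18. No member was higher by at least 20 percentage points, a size reached by 0.515% of all protein-coding genes. With 1 library per line these counts have no error from replicates. The members nearest to the threshold were OR5D16 (-20.17) and OR52E2 (-20.07) on one side and OR5I1 (-19.97) and OR4A47 (-19.89) on the other.

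**Figure D1:**
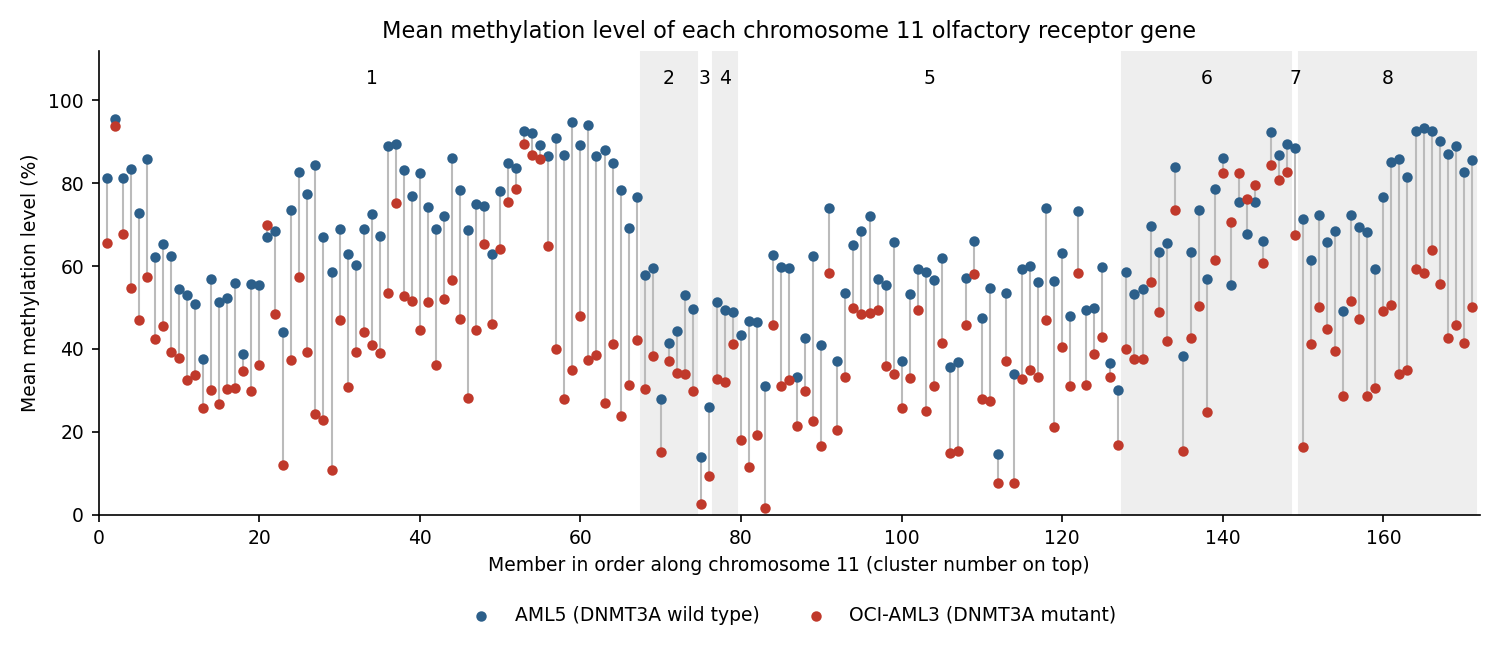
Mean methylation level in percent (y axis) of each of the 171 members in their order along chromosome 11 (x axis), with AML5 in blue, OCI-AML3 in red, a grey line joining the same gene and shading that separates the 8 position clusters; each point is a mean over CpG dinucleotides of 1 library. The red point lies under the blue one in 166 members, and the 4 members of cluster 6 in which it lies above stand side by side.

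Most receptor genes elsewhere in the genome were also lower, in a share that varied between chromosomes. Of the 222 receptor genes on other chromosomes with enough CpG dinucleotides, 176 (79.3%) had a lower mean level, against 92.8% of all protein-coding genes. The level was lower by at least 20 percentage points in 65 (29.3%) and higher by as much in 15 (6.76%). Among all protein-coding genes these shares were 6.38% and 0.515%. The 222 genes had a median difference of -13.3. They were not alike, since 12 of the 13 genes on chromosome 17 had a higher mean level in OCI-AML3 whereas all 16 on chromosome 7 and all 12 on chromosome 3 had a lower one. A decrease of at least 20 percentage points was found in 12 of the 16 on chromosome 7 (75.0%) and in 8 of the 12 on chromosome 3 (66.7%), with median differences of -23.1 and -24.5, next to 59.6% and -21.8 for the members. On chromosome 11 itself, the 188 receptor pseudogenes had a median difference of -19.1 and 89 of them were lower by at least 20 percentage points. The 1140 other protein-coding genes of chromosome 11 had a median difference of -5.76, and 88 were lower by that size.

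**Figure D2:**
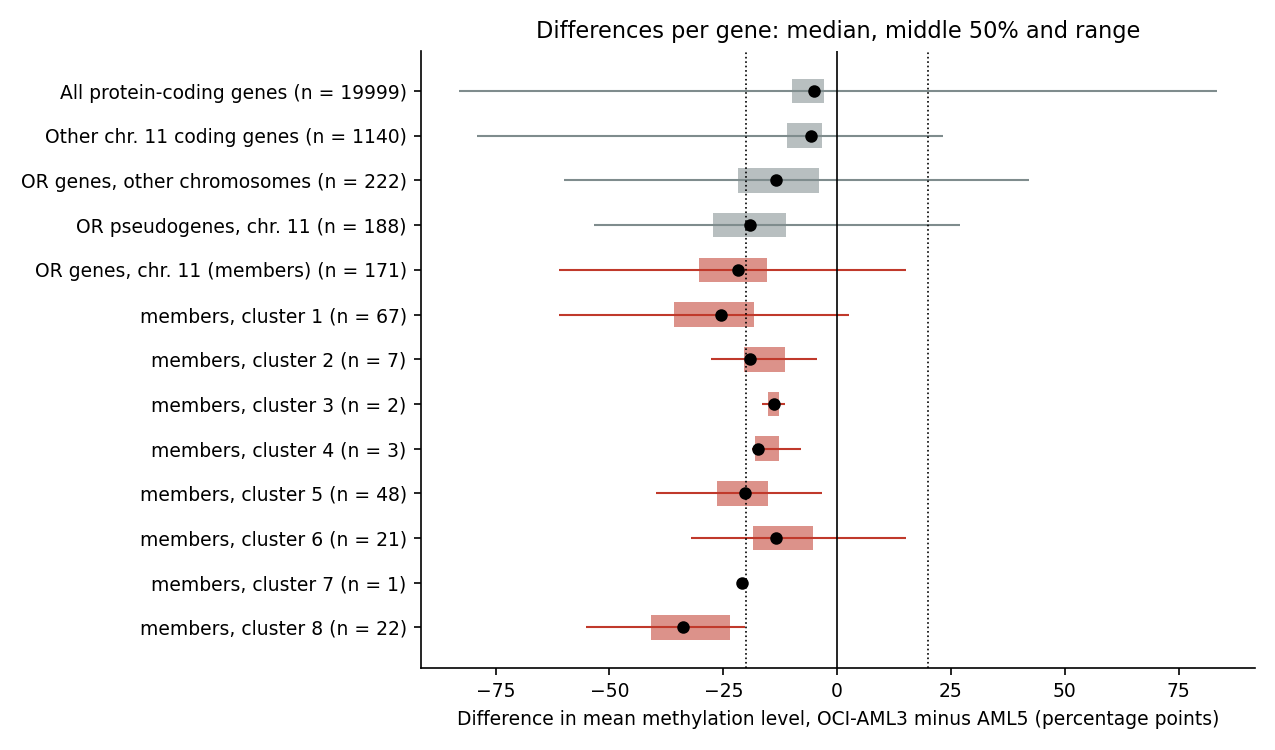
Difference in mean methylation level, OCI-AML3 minus AML5, in percentage points (x axis) for the members, their 8 clusters and 4 comparison groups (y axis, with the number of genes); dots are medians, boxes hold the middle 50% and lines run from the lowest to the highest gene, with dotted lines at 20 points either way. The median lies at -21.8 for the members and at -5.18 for all protein-coding genes, and in cluster 8 the whole line lies below -20.

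The single CpG dinucleotides of the members showed the same direction. Their mean level was 46.3% in OCI-AML3 vs 68.6% in AML5. In OCI-AML3, 36.8% of them had a level under 20% and 30.1% a level over 80%, whereas in AML5 13.8% were under 20% and 54.3% over 80%. Fisher's exact test with Benjamini–Hochberg adjustment over all 24454751 nuclear CpG dinucleotides called 2297 of the 7224 lower in OCI-AML3 (31.8%, against 14.7% of all CpG dinucleotides tested). It called 129 higher (1.79%, against 3.86% of all tested). The test covers the sampling of reads from 1 library per line, not the variation between cultures, and CpG dinucleotides on the same read are not independent. At least 1 CpG called lower was present in 168 members, as in 98.6% of all protein-coding genes, which hold a median of 439 CpG dinucleotides against 25 in members. In 30 members no fewer than 50% of the CpG dinucleotides were called lower, against 1.31% of all protein-coding genes. None was called lower in OR8J1, OR5AN1 and OR4D6. When the calls of a gene were pooled, the Wilson 95% intervals of both lines were apart in 153 members with the lower level in OCI-AML3 and in 3 members (OR5AN1, OR5A2 and OR5A1) with the higher level there, and they overlapped in 15. Over all protein-coding genes the intervals were apart in 89.6% with the lower level in OCI-AML3 and in 4.81% with the higher one, so these counts do not set the members apart.

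The decrease was similar in the promoter window and in the gene body. In the promoter window 101 of 171 members were lower by at least 20 percentage points (8.88% of all protein-coding genes), with a median difference of -21.4. In the gene body the count was 101 of the 169 members with 3 or more CpG dinucleotides there (6.99% of all protein-coding genes), with a median difference of -22.9. Along 500 bp bins from 2000 bp upstream to 2000 bp downstream of the TSS, members lay between 42.5% and 53.3% in OCI-AML3 and between 66.1% and 71.7% in AML5. All protein-coding genes fell to 15.0% in OCI-AML3 vs 17.2% in AML5 in the first 500 bp after the TSS, a dip that the receptor genes lacked in both lines. For 78 members the annotated TSS is the first coding base, so their window is centred on the start codon and not on a mapped start of transcription.

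**Figure D3:**
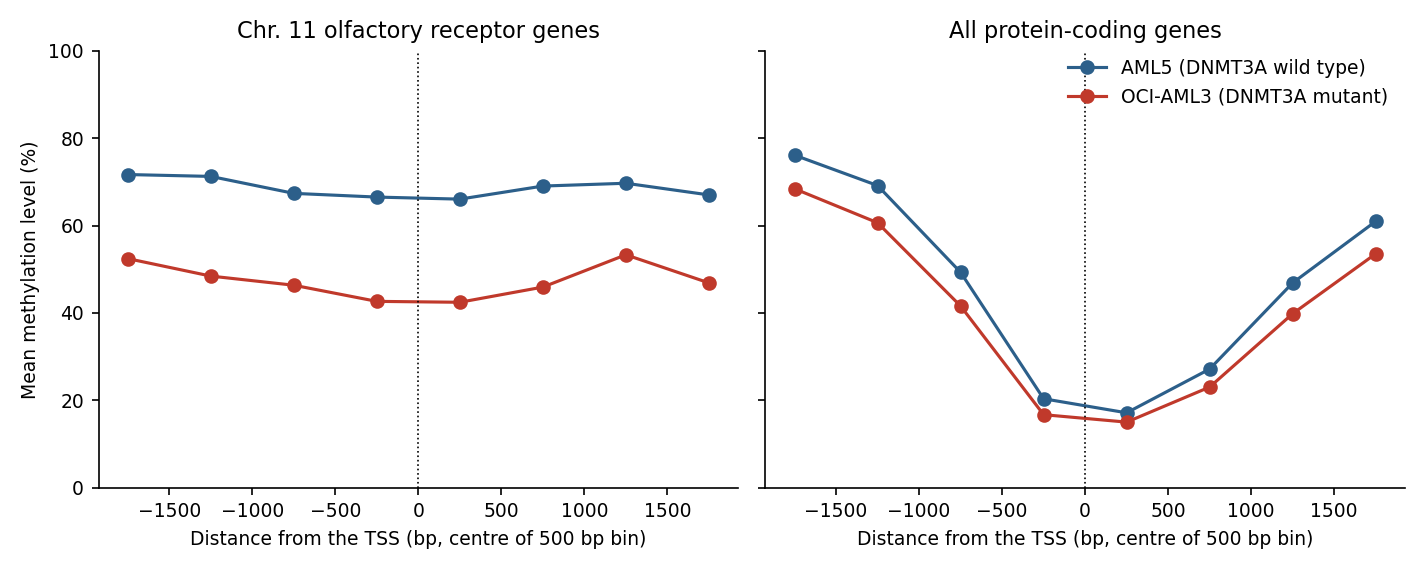
Mean methylation level in percent (y axis) in 500 bp bins by distance from the TSS (x axis, upstream to the left) for the members (left) and for all protein-coding genes (right), with AML5 in blue and OCI-AML3 in red. The members run nearly level, at 66.1% to 71.7% in AML5 and 42.5% to 53.3% in OCI-AML3, whereas all genes dip to 17.2% and 15.0% after the TSS.

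The receptor promoters also differed in sequence from those of other genes. In the 300 bases that start 250 bases before the TSS, members held a median of 1 CpG, against 18 for all 20163 protein-coding promoters, and had a median GC content of 37.7%, against 60.3%. No CpG at all was present in 46 member promoters and only 1 in another 56. At least 10 CpG dinucleotides were found in 4 members, OR56A3 with 21, OR10Q1 with 18, OR52N2 with 14 and OR51D1 with 10. The letters TATAAA, the core of the TATA box, were found on either strand in 33.9% of member promoters and in 10.9% of all promoters. TAATTA, a core bound by homeodomain factors such as LHX2, was present in 20.5% and 3.81%. CCCNNGGG, the core of sites for the olfactory factor EBF1, was present in 8.77% and 20.1%. In the 93 members whose TSS is not the first coding base the shares were 28.0% for TATAAA, 20.4% for TAATTA and 15.1% for CCCNNGGG, and the other 78 windows are centred on a start codon. These are matches of letters only, and no binding was measured. TATAAA and TAATTA consist of A and T alone, and the fixed letters of CCCNNGGG are C and G. The shares were not adjusted for the lower GC content of the members, and the part of base composition in them was not tested.

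The largest decreases were found at 3 places, beside the beta-globin genes, in a short run of class II genes of the same arm and, with OR6X1, on the long arm. The 6 members with the largest decrease among those with at least 10 CpG dinucleotides were OR2D3, OR51B4, OR10A5, OR6A2, OR10A4 and OR6X1. OR2D3 was methylated at 26.9% ± 32.9 (SD over 13 CpG dinucleotides) in OCI-AML3 vs 87.9% in AML5, and 10 of the 13 were called lower. OR51B4, a class I receptor beside the beta-globin genes, had 24.3% and 84.3% over 26 CpG dinucleotides, 20 of them called lower. In OR10A5 the levels were 34.8% and 94.7% over 25 CpG dinucleotides, in OR10A4 37.4% and 94.0% over 24, and 18 were called lower in each. OR6A2, known for a response to aldehydes of coriander leaf, had 27.9% and 86.8% with 24 of 34 called lower. OR6X1, the member of cluster 8 nearest to the centromere, had 16.3% and 71.4% with 14 of 19 called lower. In all 6 the level in AML5 was above 70%, and none held more than 1 CpG called higher.

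The promoters of OR2AG1 and OR10A5 are printed because few CpG dinucleotides carry the whole measurement there. OR2AG1, a receptor for the fruity ester amyl butyrate, was methylated at 40.0% in OCI-AML3 vs 90.9% in AML5 over 43 CpG dinucleotides. Its promoter (GRCh37, plus strand, chr11:6804001-6804300) and that of OR10A5 (plus strand, chr11:6866664-6866963) read as follows from 5′ to 3′, with every CpG in capitals.
OR2AG1: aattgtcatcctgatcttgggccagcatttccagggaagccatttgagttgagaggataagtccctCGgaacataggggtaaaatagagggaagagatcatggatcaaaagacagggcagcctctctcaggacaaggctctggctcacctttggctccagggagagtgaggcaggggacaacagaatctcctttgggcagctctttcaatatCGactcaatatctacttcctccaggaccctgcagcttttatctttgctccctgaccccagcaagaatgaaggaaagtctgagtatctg
OR10A5: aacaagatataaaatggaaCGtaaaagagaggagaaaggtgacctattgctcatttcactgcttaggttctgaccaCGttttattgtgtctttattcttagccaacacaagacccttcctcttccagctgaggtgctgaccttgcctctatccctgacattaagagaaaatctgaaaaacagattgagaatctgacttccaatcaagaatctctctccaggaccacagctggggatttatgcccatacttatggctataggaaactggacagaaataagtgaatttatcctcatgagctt
At the first CpG of OR2AG1, 184 bases upstream of the TSS, 0 of 19 reads were methylated in OCI-AML3 and 37 of 37 in AML5 (adjusted P-value 2.175e-13). At the second, 38 bases upstream, the reads were 1 of 13 and 21 of 22 (adjusted P-value 3.714e-06). In OR10A5 the CpG 174 bases upstream had 0 of 11 methylated reads in OCI-AML3 and 17 of 17 in AML5 (adjusted P-value 1.026e-06), and the one 231 bases upstream had 0 of 3 and 7 of 7 and was too shallow to be tested. A count of 0 at the median nuclear depth of 27 reads still allows a methylated share of up to 11.1% in OCI-AML3. The CpG dinucleotides above had fewer reads there, so a count of 0 at them allows a larger share. The annotated TSS of OR10A5 is its first coding base, so its distances are counted from the start codon. Its printed window is therefore not placed by a mapped start of transcription. That window holds TATAAA near its 5′ end, and the OR2AG1 promoter holds none of the 3 motifs searched.

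OR51B4 held no CpG in the 300 bases read as its promoter, which are placed by the first coding base. Its lower level was seen both in the gene and around it. The gene body had 27.4% in OCI-AML3 vs 84.4% in AML5 over 11 CpG dinucleotides. The 250 bases that follow (GRCh37, minus strand, chr11:5321415-5321664) lie downstream of the gene and were chosen as the stretch of its region with the most CpG dinucleotides called lower.
OR51B4: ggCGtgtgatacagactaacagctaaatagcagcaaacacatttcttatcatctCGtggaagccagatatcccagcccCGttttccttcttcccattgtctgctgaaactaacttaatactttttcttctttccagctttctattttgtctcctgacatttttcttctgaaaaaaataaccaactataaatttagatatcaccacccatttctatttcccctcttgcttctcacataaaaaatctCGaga
From 5′ to 3′, the 4 CpG dinucleotides had 1 of 46, 7 of 60, 15 of 70 and 0 of 28 methylated reads in OCI-AML3. In AML5 the same 4 had 30 of 31, 36 of 39, 44 of 47 and 20 of 27. By that choice all 4 were called lower, with adjusted P-values from 7.956e-17 to 5.285e-08.

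One CpG lies at the same place of the protein in many receptors, which allowed the members to be compared site by site. Olfactory receptors share a stretch around the amino acids Asp-Arg-Tyr at the inner end of a membrane helix, and the arginine codon there often begins with CG. A run of 5 codons (Asp or Glu, Arg beginning with CG, Tyr or stop beginning with TA, any codon with T in the middle, and Ala) was searched for on both strands of chromosome 11 after the first sequences had been read. Of 182 matches, 89 lay in exons of 89 members in the coding direction, 40 in receptor pseudogenes and 53 elsewhere. The match was present in exons of 3 of the 1140 other protein-coding genes of the chromosome (0.263%). In 6 members the CpG did not pass the read minimum.

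At the 83 members with enough reads, the median level of this CpG was 33.7% in OCI-AML3 vs 84.8% in AML5. It was lower in OCI-AML3 in 70 members, equal in 2 and higher in 11. Fisher's exact test called 38 of the 83 lower (45.8%) and 0 higher, by the adjustment over all nuclear CpG dinucleotides. Of all CpG dinucleotides tested 14.7% were called lower and 3.86% higher, and of all member CpG dinucleotides 31.8% and 1.79%. Of the 44 members with a level over 80% in AML5, 20 were also over 80% in OCI-AML3, 20 were between 20% and 80%, and 4 were under 20%. Among members with over 80% in AML5 the site thus had differing levels in OCI-AML3, and 21 of these 44 were called lower. Members chosen for a high level in AML5 have more room for a decrease than for an increase. In cluster 5 the median was 12.7% in OCI-AML3 vs 46.9% in AML5 over 22 members, in cluster 1 61.5% and 93.7% over 32, and in cluster 8 55.6% and 91.2% over 17.

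The 55 bases around this CpG are printed for 5 members chosen with their values known, none of them among the 11 with a higher level in OCI-AML3 (GRCh37, coding strand, the CpG in capitals). They are OR10A5 (plus strand, chr11:6867257-6867311), OR56A4 (minus strand, chr11:6023819-6023873), OR8B4 (minus strand, chr11:124294376-124294430), OR10Q1 (minus strand, chr11:57995941-57995995) and OR5T2 (minus strand, chr11:56000150-56000204).
OR10A5: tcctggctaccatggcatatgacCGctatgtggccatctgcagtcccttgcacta
OR56A4: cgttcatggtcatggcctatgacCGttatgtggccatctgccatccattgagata
OR8B4: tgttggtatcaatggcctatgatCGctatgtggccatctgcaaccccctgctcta
OR10Q1: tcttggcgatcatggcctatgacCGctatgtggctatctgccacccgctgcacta
OR5T2: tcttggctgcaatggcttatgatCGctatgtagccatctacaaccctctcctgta
In OR10A5, 3 of 35 reads were methylated in OCI-AML3 and 41 of 41 in AML5 (adjusted P-value 3.82e-16). In OR56A4 the reads were 26 of 87 and 68 of 70 (adjusted P-value 1.03e-17), and in OR8B4 0 of 9 and 14 of 14 (adjusted P-value 1.93e-05). OR10Q1 had 42 of 48 methylated reads in both lines. OR5T2 was nearly unmethylated in both, with 0 of 40 and 1 of 34. Levels in OCI-AML3 at the same codon thus ran from none to most reads among these 5, with OR56A4 between them. The largest increase at this CpG was that of OR51V1, with 23 of 24 methylated reads in OCI-AML3 and 21 of 31 in AML5 (adjusted P-value 0.0762), which was not called.

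Near-identical receptors share part of this sequence, and reads from one copy can be assigned to another. The 55 bases were identical within 4 pairs of members. OR10A2 and OR10A5, identical over this stretch and both at 100% in AML5, had 67.4% and 8.57% in OCI-AML3 at the CpG. OR52I1 and OR52I2 had 29 of 33 and 24 of 30 methylated reads in OCI-AML3 and 33 of 34 and 37 of 39 in AML5. OR5T1 and OR5T2 were both at 0% in OCI-AML3, with 12.7% and 2.94% in AML5. The pair OR10G4 and OR10G9 was covered by at most 9 reads in OCI-AML3 and 15 in AML5. Levels of such copies are uncertain to the extent that alignment could not separate them.

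Members were grouped by position, with a new cluster wherever neighbouring TSSs were over 1 Mb apart, which gave 8 clusters. Cluster 1, from OR52B4 at 4388493 to OR10A3 at 7963255, held 67 members, with a median difference of -25.5, and 47 were lower by at least 20 percentage points. It contains all 55 class I receptors of the chromosome and 12 class II receptors at its end toward the centromere. Cluster 5, from 55110677 to 56757318 beside the centromere, held 48 members at a median of 32.7% in OCI-AML3 vs 55.8% in AML5. All 48 were lower, and 25 by at least 20 percentage points. Cluster 8, from 123624288 to 124452838, held 22 members at 45.3% and 79.1%, and 22 of 22 were lower by at least 20 percentage points. Cluster 6, from 57791353 to 59481318, held 21 members with a median difference of -13.5, of which 5 passed that threshold. OR2AT4, alone in cluster 7, had 67.6% in OCI-AML3 vs 88.6% in AML5 over 141 CpG dinucleotides, 44 of them called lower. Clusters 2, 3 and 4, with 7, 2 and 3 members of family OR4, had median differences of -19.1, -14.0 and -17.5.

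Class I and class II receptors had like differences over the whole chromosome. The 55 class I members had a median of 44.6% in OCI-AML3 vs 72.1% in AML5, with a median difference of -23.2 and 35 lower by at least 20 percentage points. The 116 class II members had 37.5% and 62.1%, with -21.0 and 67 members. Within cluster 1, however, the 12 class II members had a median difference of -49.5 and 12 of 12 passed the threshold. Since class I members lie together in 1 stretch, class and place cannot be told apart.

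Splitting the members at gaps over 0.5 Mb, a choice made after the data had been seen, separated 3 stretches with their own levels. The 8 class II genes from OR2AG2 to OR2D3 (6786857 to 6943225) had a median of 37.9% in OCI-AML3 vs 88.6% in AML5, a median difference of -53.8. The 272 CpG dinucleotides of these members averaged 43.0% and 89.5%, and 153 (56.3%) were called lower, against 14.7% of all CpG dinucleotides tested. OR2AG2, at 64.9% and 86.7%, changed least among the 8. The 4 genes from OR5P2 to OR10A3 (7817521 to 7963255) had a median difference of -40.8, with OR5P3 at 23.9% and 78.3%. The 8 genes from OR5AN1 to OR10V1 (59126368 to 59481318) lacked a shared direction, with a median difference of -0.664. Their median level was 80.2% in OCI-AML3 vs 75.5% in AML5. In OCI-AML3 4 of 8 were higher and 4 lower, and none passed 20 percentage points either way.

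The class I stretch was itself uneven. OR52K2 was highly methylated in both lines, with 93.7% in OCI-AML3 vs 95.4% in AML5 over 23 CpG dinucleotides, the highest level of any member in AML5. OR56B4, OR52B2 and OR52W1, the last 3 members of the stretch, were at 89.5%, 86.9% and 85.8% in OCI-AML3 and at 92.5%, 92.0% and 89.4% in AML5. The receptors beside the beta-globin genes were much lower in OCI-AML3. OR51B2 had 22.8% and 67.0% over 20 CpG dinucleotides, with 14 called lower and 1 higher. OR51B6 had 10.8% and 58.5% over 10 CpG dinucleotides, with 6 called lower, at a mean of 13.2 reads in OCI-AML3. OR51B5, whose annotated transcript spans 202209 bp and the genes of other receptors, had 39.0% and 67.3% over 999 CpG dinucleotides, with 396 called lower and 14 higher.

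OR51E1 and OR51E2 are known for expression in prostate, where they are called prostate-specific G protein-coupled receptors. OR51E1 had 45.5% in OCI-AML3 vs 65.3% in AML5 over 97 CpG dinucleotides, with 31 called lower and 1 higher. OR51E2 had 39.2% and 62.4% over 128 CpG dinucleotides, with 51 called lower and 1 higher. The promoter of OR51E1 (GRCh37, plus strand, chr11:4664400-4664699) is printed because its 4 CpG dinucleotides moved in both directions.
OR51E1: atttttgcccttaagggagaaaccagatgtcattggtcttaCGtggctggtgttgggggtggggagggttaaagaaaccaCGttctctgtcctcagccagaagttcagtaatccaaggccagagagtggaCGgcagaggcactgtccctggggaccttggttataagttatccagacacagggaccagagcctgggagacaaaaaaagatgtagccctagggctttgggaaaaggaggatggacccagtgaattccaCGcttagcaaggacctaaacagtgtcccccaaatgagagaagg
The first CpG, 209 bases upstream of the TSS, had 0 of 12 methylated reads in OCI-AML3 and 17 of 22 in AML5 (adjusted P-value 0.000259). The third, 120 bases upstream, had 0 of 29 and 31 of 42 (adjusted P-value 2.389e-09). The fourth, 7 bases downstream, had 24 of 50 and 0 of 56 (adjusted P-value 1.1e-08), and was the only CpG of OR51E1 called higher. The second, 170 bases upstream, had 1 of 18 and 0 of 28 and was not called.

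Receptors with a known odorant did not share one pattern. OR2AT4, a receptor for synthetic sandalwood odorants that is also known from skin, fell by 20.9 percentage points. OR10G4, a receptor for the smoky compound guaiacol, had 47.3% in OCI-AML3 vs 69.5% in AML5 over 38 CpG dinucleotides, with 9 called lower. OR5A1, the receptor behind sensitivity to beta-ionone of violets, had 76.2% and 67.7% over 86 CpG dinucleotides, with 13 called higher and 3 lower. OR5AN1, a receptor for musk odorants, showed the largest increase of all members, with 70.6% ± 33.6 (SD over 46 CpG dinucleotides) in OCI-AML3 vs 55.4% in AML5, and 9 called higher and 0 lower. In its promoter window alone the increase was 20.2 percentage points. The promoter of OR5AN1 (GRCh37, plus strand, chr11:59126118-59126417) is shown as the counterpart of OR2AG1.
OR5AN1: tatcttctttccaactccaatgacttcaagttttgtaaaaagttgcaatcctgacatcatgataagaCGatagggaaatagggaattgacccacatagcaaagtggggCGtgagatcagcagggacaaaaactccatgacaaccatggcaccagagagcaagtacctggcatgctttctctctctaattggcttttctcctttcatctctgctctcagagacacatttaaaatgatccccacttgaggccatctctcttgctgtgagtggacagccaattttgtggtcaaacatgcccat
The CpG 142 bases upstream of the TSS had 24 of 24 methylated reads in OCI-AML3 and 1 of 22 in AML5 (adjusted P-value 1.65e-10). The one 183 bases upstream had 21 of 22 and 18 of 25 (adjusted P-value 0.208) and was not called.

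The remaining members that were higher in OCI-AML3 were OR5A2, OR4D6 and OR52J3. OR5A2 had 82.6% in OCI-AML3 vs 75.4% in AML5 over 71 CpG dinucleotides, with 10 called higher and 4 lower. OR4D6 had 79.5% and 75.6%, with 2 of 42 called higher. OR52J3, in the class I stretch, had 69.8% and 67.1%, with 3 called each way. OR5AN1, OR5A2, OR5A1 and OR4D6 are consecutive on the chromosome.

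Among members with at least 10 CpG dinucleotides, the 3 lowest levels in AML5 were those of receptors of family OR4 near the centromere. OR4C16 had 1.63% in OCI-AML3 vs 31.1% in AML5 over 12 CpG dinucleotides, with 7 called lower. OR4X1 had 15.2% and 28.0% over 22, with 5 called lower, and OR4C6 had 21.4% and 33.3% over 14, with 2 called lower. OR8J1, with 9 CpG dinucleotides, had 7.70% and 14.7%. OR4C12, with 8 CpG dinucleotides, had 9.38% and 25.9%, and OR4C13, with 3, had 2.62% and 14.0%. In this family the median was 32.5% in OCI-AML3 vs 49.7% in AML5 over 25 members, of which 9 were lower by at least 20 percentage points. Family OR8, in clusters 5 and 8, had 41.3% and 66.2% over 23 members, and 17 passed the threshold. Family OR56 had 70.4% and 80.3% over 6 members, and 1 passed it.

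The sequence between the members moved with them in most clusters. In cluster 8 the 3550 CpG dinucleotides between its member regions had a mean of 48.3% in OCI-AML3 vs 79.0% in AML5, close to the 45.4% and 78.6% of the members themselves. In cluster 5 the 6341 such CpG dinucleotides had 37.9% and 55.8%, and the members 37.1% and 56.4%. In cluster 1 the spacer had 61.4% and 77.4%, a difference of -16.1, against -25.7 in the member CpG dinucleotides. In cluster 6 the spacer differed by -1.53 and the members by -12.4. The spacers of clusters 1 and 6 include the wide gaps between the stretches split above. Inside the class I stretch the spacer differed by -18.2 and the members by -23.1. From OR2AG2 to OR2D3 these values were -41.9 and -46.4, and from OR5P2 to OR10A3 -33.5 and -42.2. In cluster 6 they were -13.4 and -18.0 from OR9Q1 to OR5B21. From OR5AN1 to OR10V1 the directions were opposite, with -4.85 in the spacer and 1.52 in the members. Receptor pseudogenes inside cluster 8 had a median difference of -32.7 over 19 genes, and those inside cluster 5 -21.1 over 47. Neighbouring members with regions that do not overlap differed from each other by a median of 8.03 percentage points in their change over 157 pairs, against 12.5 for members of different clusters. Spearman's rho between neighbours was 0.61 as a description, since neighbours share library, read depth and base composition. Across the members the level in OCI-AML3 followed that in AML5 with a Spearman's rho of 0.71 over 171 genes from the same pair of libraries.

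Within the member regions, lone CpG dinucleotides flanked by A or T were the least methylated in both lines. Of the 7224 member CpG dinucleotides, 1184 (16.4%, against 10.5% of all nuclear CpG dinucleotides) had no other CpG within 35 bp and A or T on both sides, a context known to lose methylation in dividing cells. Their mean level was 21.0% in OCI-AML3 vs 46.4% in AML5. The 2293 with no other CpG within 35 bp but other flanking bases had 41.3% and 67.0%. The 3747 with another CpG within 35 bp had 57.3% and 76.6%. In this order of contexts the differences were -25.4, -25.7 and -19.3 percentage points, and 34.0%, 35.6% and 28.7% were called lower. Genome-wide, the shares called lower in the same contexts were 20.8%, 17.3% and 12.8%. Among all nuclear CpG dinucleotides the lone context had 50.9% and 63.1% and the dense one 70.3% and 76.8%. Among the member CpG dinucleotides over 80% in AML5, the 326 in the lone context averaged 46.0% in OCI-AML3 and 190 (58.3%) were called lower. The 3594 in any other context averaged 68.1%, and 1188 (33.1%) were called lower. For all nuclear CpG dinucleotides over 80% in AML5 the means in OCI-AML3 were 74.4% in the lone context and 84.8% in any other, and 25.0% and 13.3% were called lower. These subsets were read at 25.7 and 28.3 reads per CpG in OCI-AML3, and the part of depth was not tested.

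Genes that act with the receptors had smaller differences. Of a list of 23 genes of odorant signal transduction, receptor transport and receptor choice, 22 (95.7%) had a lower level in OCI-AML3. A lower level was found in 92.8% of all protein-coding genes, so this share does not set the list apart. None was lower by 20 percentage points, against 6.38% of all protein-coding genes. The median difference of the list was -7.16, against -5.18 for all protein-coding genes. GNAL, the olfactory G protein subunit, had 66.9% in OCI-AML3 vs 76.7% in AML5, and ADCY3, the adenylyl cyclase it activates, had 81.3% and 83.3%. OMP, the marker protein of mature olfactory neurons, which also lies on chromosome 11, had 77.6% and 84.8%. CNGA2, a subunit of the olfactory cation channel, had 49.0% and 66.7%. EBF1 was the exception, with 79.6% and 60.2% over its whole region but 3.11% and 38.8% in the promoter window. In the promoter window, EBF1 and CNGB1, another channel subunit at 64.0% and 84.0%, were the 2 of 23 lower by at least 20 percentage points. That is 8.70%, close to the 8.88% of all protein-coding genes.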

How the data were processed

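WGBS of OCI-AML3 and AML5 (1 library each, grouped by the DNMT3A status in the labels) was used. The authors aligned paired-end reads to hg19 with Bismark on Bowtie 0.12.8. The deposited files hold raw counts of methylated and unmethylated reads per CpG dinucleotide, with both strands added and no smoothing. Removal of duplicate reads is not given in the sources used here. The listed position was the G of a CpG of GRCh37 at 100% of chromosome 11 entries, and the column of unmethylated counts was settled on mitochondrial DNA (99.8% and 99.9% of calls there). Median nuclear depth was 27 and 30 reads.

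Levels were averaged per gene over those CpG dinucleotides that each line covered by more than 5 reads, in the union of the gene body and the window up to 2000 bp from the most upstream TSS (GENCODE lifted to GRCh37). A gene was called at 20 percentage points, the size of difference the study used for promoters together with a cut on expression. Here it was applied without expression, to the mean over that union unless the promoter window or gene body alone is named. Single CpG dinucleotides were tested with two-sided Fisher's exact tests at an adjusted P-value of 0.05, tested on simulated data. Wilson 95% intervals and floors (3 reads) cover counting error only. Promoter and receptor sequences were read from the GRCh37 genome. Named members were the 6 largest decreases and increases, the 3 lowest and highest levels in AML5 (at least 10 CpG dinucleotides), the richest in CpG dinucleotides per cluster, and receptors known outside the nose or for a ligand. Further members in the text were chosen after their values were seen. Members, lists and tests were chosen with earlier results of these data known. Alternatives covered reads, pooling, depth, windows, thresholds and adjustment. Python 3.11.15, numpy 2.4.6, scipy 1.17.1, pandas 2.3.3 and numba 0.67.0 were used.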

Additional observations from a re-analysis of the deposited data

How the results depend on the processing

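Across 58 alternatives of 8 results none reversed a direction, and 47 stayed within 1.5 times of a count or within a margin of a median difference. The margin was the counting error of the difference between lines with all calls of the member regions pooled. It was 0.29 percentage points either way for the whole regions, and the promoter window and gene body had margins of their own. This margin treats reads as independent and is not an interval of a median over genes. The median difference over the members was -21.2 with at least 10 reads, -21.4 in the promoter window only, -22.9 in the gene body only, -23.1 with a window of 1000 bp, -21.2 with the first coding base as anchor and -21.3 without CpG dinucleotides in the regions of 2 or more members. The median in the promoter window was -21.0 with at least 10 reads and -22.0 from pooled calls. The number of members lower by at least 20 percentage points ranged from 94 to 105 under other reads, windows and pooling, and a threshold of 30 points left 44. The number of members higher was 1 (OR5AN1) in the promoter window only and 1 at a threshold of 10 points. Leaving out OR51B5 and OR9Q1, whose long annotated bodies hold 1841 of the 7224 CpG dinucleotides (chosen after seeing the data), left 1701 called lower, or 31.6% of the rest. No paired analysis was possible because each line has 1 library. At the median nuclear depth, a count of 0 at a single CpG allows a methylated share of up to 11.1% in OCI-AML3 vs 10.0% in AML5. No value speaks of the variation between cultures.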
